A study of Homo sapiens with 24 samples.

Results

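This section describes 37 genes of cholesterol and fatty acid metabolism in C4-2B, a human prostate cancer cell line derived from LNCaP that responds to androgen. The genes were listed by name, in 4 roles, and their probes were those that the array platform assigns to those names. Each gene was tested with its brightest detected probe, and some further probes are given beside it. Of the 37 listed genes, 34 had a detected probe and were tested, among 12438 genes tested in all. These were 14 of 15 enzymes of sterol synthesis and 5 of 6 genes of SREBP control and sterol transport. They also included 12 of 13 genes of fatty acid synthesis, elongation, desaturation and activation. The last 3 of 3 were genes linked to LXR, a nuclear receptor, for sterol export (ABCA1 and ABCG1) or LDL receptor breakdown (MYLIP). FDFT1 and ACSL3 were not analysed here, and the STARD4 probe was not detected on any array.

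For 3 days before hormone was added the cells grew without phenol red in 5% serum stripped with charcoal, which removes most steroid hormone. They carried one siRNA, which targeted p300 (sip300), CBP (siCBP) or, as the control, a non-specific sequence (siNS). RNA was taken 16 h after addition of dihydrotestosterone (DHT), the strongest natural androgen, at 10 nM, or at 0 h, called no DHT below. This gave 6 groups of 4 arrays, namely sip300 with DHT, sip300 with no DHT, siCBP with DHT, siCBP with no DHT, siNS with DHT and siNS with no DHT. All groups share the cell line, the stripped medium and a transfected siRNA. No vehicle or shared time of harvest is named in the labels, so a difference between 16 h and 0 h can hold other effects of that time. Whether the 4 replicates of a group came from separate cultures is not said either, and the spread behind each p-value may be technical. An siRNA lowers a transcript without removing it. EP300, which encodes p300, fell by 1.03 on the log2 scale with sip300 relative to siNS (limma, adjusted p = 8.96e-05). CREBBP, which encodes CBP, fell by 1.71 with siCBP (limma, adjusted p = 1.08e-07) and rose by 0.49 with sip300 (limma, adjusted p = 0.00803). FKBP5, a classical androgen target, rose by 2.53 with DHT over the mean of the 3 arms (limma, adjusted p = 5.08e-15). Of 10 luminal prostate markers, 8 had a probe and 6 were detected on all 24 arrays, whereas the basal keratins KRT5 and KRT14 were detected on 0 arrays. Of the markers of the other lipid-making cell types, ADIPOQ was detected on 3 arrays and FABP4 on 0, while LEP, ALB and APOA1 were detected on 24 arrays. The arrays came from a pair of slides, each with 2 arrays of every group. Replicate numbers were spread unevenly over the slides. The differences within a slide given below therefore compare partly or wholly different replicate numbers.

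Cells make cholesterol from acetyl-CoA through mevalonate, isoprenoid diphosphates, squalene and lanosterol. When sterols in the endoplasmic reticulum are low, SCAP carries the SREBP transcription factors to the Golgi, where proteases free the part that enters the nucleus and switches on most of these enzymes. INSIG proteins hold SCAP back when sterols are plentiful. SREBF1 and SREBF2 encode the SREBPs, and SREBF1 products act mainly on fatty acid genes. LXR nuclear receptors respond to oxysterols and raise ABCA1 and ABCG1, which export cholesterol, and MYLIP, a ubiquitin ligase that sends the LDL receptor for breakdown. Androgen is known to raise lipid synthesis in prostate cancer cells, and p300 and CBP are related histone acetyltransferases that serve as coactivators of the androgen receptor and of SREBPs.

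Promoter sequence was taken from RefSeq (GRCh38.p14) for 33 of the 37 listed genes. The windows below are the 250 bases before an annotated start, 5′ to 3′ on the gene's strand, for a pair of genes described under DHT (IDI1 and HMGCS1) and a pair described under sip300 (INSIG1 and ACSL1). Where RefSeq gives several starts, the window shown is the one with the most matched bases, out of 3 for IDI1, 2 for HMGCS1 and 5 for ACSL1. Capitals mark the NF-Y box CCAAT, the E-box CACGTG and the SREBP site TCACNCCAC, each on either strand. On the opposite strand an NF-Y box reads ATTGG, and in IDI1 both forms overlap.
IDI1, chr10:1048887-1049136 (- strand): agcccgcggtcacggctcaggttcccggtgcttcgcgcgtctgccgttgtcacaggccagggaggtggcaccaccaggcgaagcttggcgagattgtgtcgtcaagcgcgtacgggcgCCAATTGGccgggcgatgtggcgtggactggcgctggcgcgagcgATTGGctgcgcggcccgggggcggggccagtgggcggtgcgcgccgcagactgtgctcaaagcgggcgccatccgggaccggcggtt
HMGCS1, chr5:43313413-43313662 (- strand): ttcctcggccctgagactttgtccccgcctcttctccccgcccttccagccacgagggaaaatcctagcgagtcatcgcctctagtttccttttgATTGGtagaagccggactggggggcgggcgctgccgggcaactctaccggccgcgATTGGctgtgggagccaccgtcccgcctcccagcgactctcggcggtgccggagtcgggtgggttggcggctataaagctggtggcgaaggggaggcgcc
INSIG1, chr7:155297628-155297877 (+ strand): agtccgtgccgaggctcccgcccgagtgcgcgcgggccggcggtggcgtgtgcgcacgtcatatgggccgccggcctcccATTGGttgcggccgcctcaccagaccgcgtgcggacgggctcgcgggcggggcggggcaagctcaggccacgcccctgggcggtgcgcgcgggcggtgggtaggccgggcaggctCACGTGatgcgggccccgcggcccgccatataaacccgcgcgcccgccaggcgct
ACSL1, chr4:184805554-184805803 (- strand): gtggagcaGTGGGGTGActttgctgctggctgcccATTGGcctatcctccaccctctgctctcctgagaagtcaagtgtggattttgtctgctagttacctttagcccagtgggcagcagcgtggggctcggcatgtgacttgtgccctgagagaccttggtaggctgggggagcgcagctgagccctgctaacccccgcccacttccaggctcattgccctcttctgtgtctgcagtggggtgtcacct

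Both pairs hold NF-Y boxes, INSIG1 also holds an E-box, and the ACSL1 window holds an SREBP site close to its 5′ end. Over all 48 windows of 300 bases for these genes (250 before to 50 after a start), the NF-Y box was found in 27 (56.2%), against 34.6% of 35116 RefSeq windows of the same length. The SREBP site was found in 2 of the 48 windows (4.17%), those of ACSL1 and SREBF2, against 1.13% of all windows. The E-box was found in 5 windows (10.4%), against 7.26% of all windows. A pair of LXR half-sites (AGGTCA, 4 bases apart) was found in 0 of the 48 windows and in 0.0199% of all. An inverted pair of androgen receptor half-sites (AGAACA and TGTTCT, 3 bases apart) was found in 0 of the 48 and in 0.00285% of all. Letters matched in a window are not evidence of binding, and these windows do not cover enhancers.

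Values below are log2 signals after background correction and quantile normalisation, and a difference is in the same log2 units. Levels of different genes are not comparable, because each probe has its own response. A gene was called when its adjusted p from limma, fitted over all 12438 genes with Benjamini-Hochberg adjustment, was under 0.05. Replicate numbers marked shared variation between arrays, so adjusted p-values with the number as a block are printed where they change a call. In bulk RNA, fewer cells expressing a gene and less RNA per cell cannot be told apart.

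With DHT several lipid-making genes were higher and all 3 LXR-linked genes were lower, of which ABCA1 was near background. Over the mean of the 3 siRNA arms, 5 of the 34 genes rose (ELOVL7, IDI1, ACACA, ELOVL5 and SCAP) and 4 fell (ABCG1, ABCA1, ACACB and MYLIP). These 9 calls were 26.5% of the genes, against 7.31% of all genes tested. The genes were listed with earlier results of these data known, so this share is not an independent test. In addition, ELOVL7 and ABCA1 passed the detection filter only through the DHT state in which they were higher. Of 36 further genes of the same pathways, described below, 2 were called. With the replicate block, HMGCS1, SQLE and LSS were added as higher, giving 8 higher and 4 lower, against 13.3% of all genes. The median difference was 0.16 over the 34 genes and -0.02 over all genes.

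**Figure D1:**
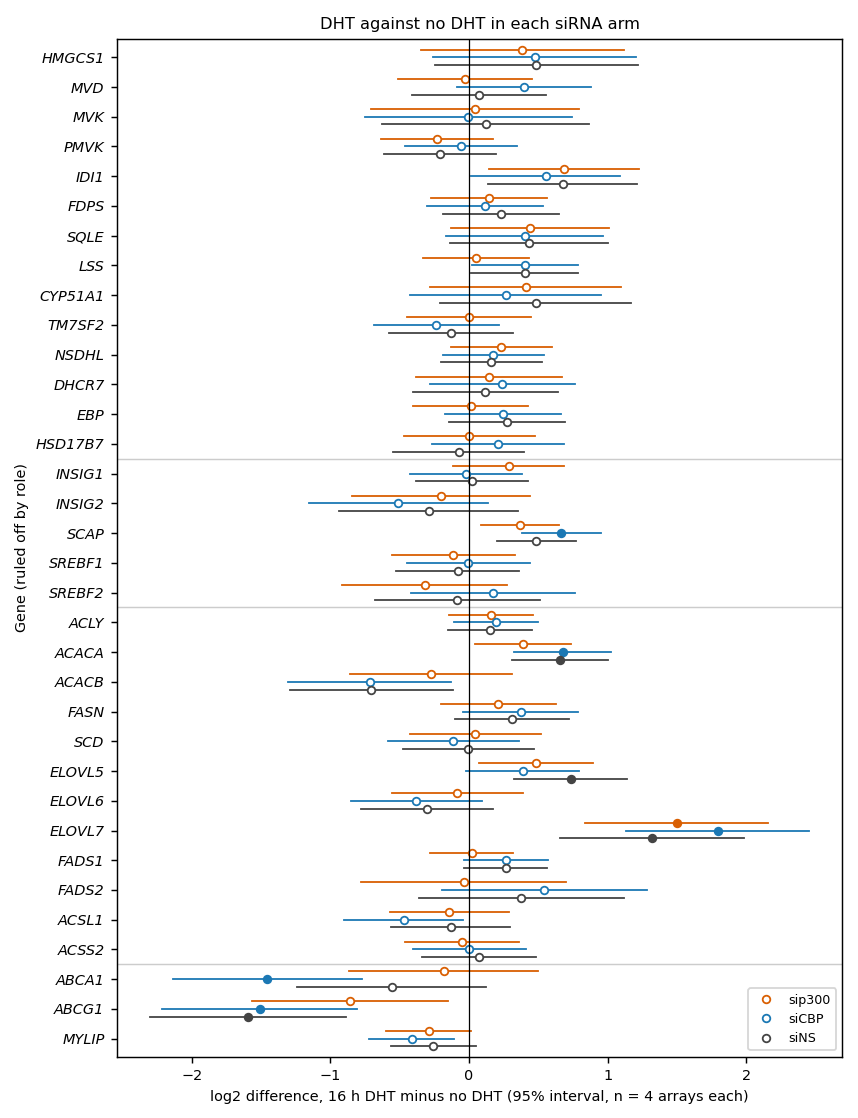
Log2 difference of DHT minus no DHT (horizontal axis, with 95% interval, 4 arrays each) for the 34 genes in the sip300, siCBP and siNS arms. Filled points passed the test across all genes. ABCG1 lies at -0.86 or less in every arm, and the ELOVL7 points rest on no-DHT signals that were above background on 2 of 12 arrays.

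In sterol synthesis, 12 of 14 enzymes had a positive mean difference and the median was 0.17, but IDI1 alone was called in the fit without a block. IDI1 interconverts the isoprenoid building blocks of the pathway. With DHT, IDI1 measured 9.85, 9.34, 9.36 and 10.27 in sip300 cells, against 9.20, 8.44, 9.0 and 9.45 with no DHT. In siCBP cells the IDI1 values were 10.23, 9.87, 9.81 and 10.13 with DHT, against 9.61, 8.86, 9.33 and 10.04 with no DHT. In siNS cells they were 10.19, 9.95, 9.98 and 10.19 with DHT, against 9.82, 8.75, 9.37 and 9.66 with no DHT. The group mean was higher with DHT in each arm, and the arrays overlapped in both knockdown arms and not in siNS cells. The IDI1 difference was 0.64 ± 0.15 (SE), a fold of 1.56 (limma, adjusted p = 0.00809), and it was positive for 4 of 4 replicate numbers. Within slides it was 0.66 on slide 1 and 0.61 on slide 2. In single arms IDI1 was called with the replicate block and not without it, in sip300 (0.68, adjusted p = 0.0169 with the block and 0.575 without), siCBP (0.55, 0.0351 with and 0.460 without) and siNS (0.68, 0.00775 with and 0.243 without). In sip300 cells the within-slide differences were 1.34 and 0.03. Each of these compares DHT and no-DHT arrays of wholly different replicate numbers.

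HMGCS1, which makes HMG-CoA, ranged over 11.16, 11.88 and 12.67 (lowest, median and highest of 12 arrays) with DHT, against 10.80, 11.35 and 12.27 with no DHT. Its arrays overlapped widely, and replicate 4 was the highest of the sip300 and of the siCBP arrays at both times. The HMGCS1 difference was 0.45 ± 0.20 (SE), called with the replicate block (limma, adjusted p = 0.000727) and not without it (0.230). SQLE, the squalene epoxidase, differed by 0.42 (adjusted p = 0.00170 with the block and 0.124 without). LSS, which closes squalene epoxide into lanosterol, differed by 0.28 (adjusted p = 0.0271 with the block and 0.124 without). A second SQLE probe differed by 0.50, whereas further LSS probes differed by 0.14 and -0.20, and none of these was called when every probe was tested. The other 10 enzymes (MVD, MVK, PMVK, FDPS, CYP51A1, TM7SF2, NSDHL, DHCR7, EBP and HSD17B7) lay between -0.16 for PMVK and 0.39 for CYP51A1.

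In SREBP control, SCAP was higher with DHT and the SREBP genes themselves were not called. SCAP measured 11.39, 11.34, 11.44 and 10.84 with DHT in sip300 cells, against 10.97, 10.82, 10.84 and 10.91 with no DHT. In siCBP cells SCAP measured 11.71, 11.77, 11.52 and 11.35 with DHT, against 10.84, 10.90, 10.99 and 10.96 with no DHT. In siNS cells it measured 11.48, 11.25, 11.36 and 11.29 with DHT, against 10.62, 11.05, 10.85 and 10.92 with no DHT. All DHT arrays stood above the arrays with no DHT in siCBP and siNS cells, and in sip300 cells replicate 4 with DHT fell among the arrays with no DHT. The SCAP difference was 0.51 ± 0.08 (SE, limma, adjusted p = 0.000107), with 0.49 and 0.52 on the slides. SREBF1 (-0.07), SREBF2 (-0.08), INSIG1 (0.09) and INSIG2 (-0.34) had adjusted p-values of 0.332 or more without the block. The SREBF2 probe was detected on 12 of 24 arrays.

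Fatty acid genes split by enzyme. ELOVL7, an elongase of long-chain fatty acids, was mostly at background with no DHT. It measured 5.69, 6.70, 7.62 and 7.04 with DHT in sip300 cells, against 5.10, 4.96, 5.17 and 5.81 with no DHT. In siCBP cells ELOVL7 measured 7.14, 7.43, 6.55 and 7.26 with DHT, against 5.20, 5.39, 5.36 and 5.23 with no DHT. In siNS cells it measured 6.59, 7.04, 7.63 and 6.86 with DHT, against 5.36, 5.35, 5.68 and 6.45 with no DHT. ELOVL7 was detected on 11 of 12 arrays with DHT and on 2 of 12 with no DHT, and the groups did not overlap in siCBP or siNS cells. The measured values gave the call of ELOVL7 (limma, adjusted p = 3.37e-06). ELOVL7 passed the detection filter only through its arrays with DHT. Its DHT calls, over the arms and in single arms, are therefore not independent of that filter. For a bound, each no-DHT array was taken at its own signal or at its lowest detected signal, whichever was higher. ELOVL7 was then at least 2.16-fold higher with DHT, and this bound was not itself tested. In siCBP cells, where no array with no DHT was above background, the bound was at least 2.43-fold higher with DHT. The adjusted p there (limma, 0.00151) is that of the measured values.

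ACACA encodes the cytosolic acetyl-CoA carboxylase, which commits carbon to fatty acid synthesis. It measured 11.93, 11.76, 11.83 and 11.93 with DHT in sip300 cells, against 11.33, 11.42, 11.54 and 11.61 with no DHT. In siCBP cells ACACA measured 12.60, 11.90, 11.99 and 12.45 with DHT, against 11.68, 11.20, 11.43 and 11.93 with no DHT. In siNS cells it measured 12.21, 11.92, 11.88 and 12.35 with DHT, against 11.46, 11.21, 11.56 and 11.50 with no DHT. The groups did not overlap in sip300 or siNS cells and overlapped by 1 array in siCBP cells. The ACACA difference was 0.57 ± 0.10 (SE), a fold of 1.49 (limma, adjusted p = 0.000279), and a second ACACA probe differed by 0.50 (adjusted p = 0.00985 among all probes). The ACACA difference was 0.48 on slide 1 and 0.67 on slide 2. ACACB, the mitochondrial carboxylase whose product restrains fatty acid import for oxidation, went the other way. Its lowest, median and highest values were 5.67, 6.91 and 7.93 with DHT, against 6.84, 7.58 and 8.26 with no DHT. The ACACB difference was -0.57 ± 0.16 (SE, limma, adjusted p = 0.0347), and the call was lost when any of 10 of the 24 arrays was left out (adjusted p up to 0.0685).

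ELOVL5, an elongase of polyunsaturated fatty acids, ranged over 10.37, 10.87 and 11.27 with DHT, against 9.65, 10.28 and 10.68 with no DHT. In siNS cells its values with DHT were 11.08, 11.02, 10.99 and 10.95, against 10.12, 10.60, 9.99 and 10.40 with no DHT. The siNS arrays did not overlap, while those of both knockdown arms did. The ELOVL5 difference was 0.53 ± 0.11 (SE, limma, adjusted p = 0.00354), with 0.60 on slide 1 and 0.47 on slide 2. FASN, the fatty acid synthase, differed by 0.30 ± 0.12 (SE) and was not called without the block (adjusted p = 0.137) or with it (0.0542). ACLY (0.17), SCD (-0.02), ELOVL6 (-0.26), FADS1 (0.18), FADS2 (0.29), ACSL1 (-0.25) and ACSS2 (0.01) were not called either.

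**Figure D2:**
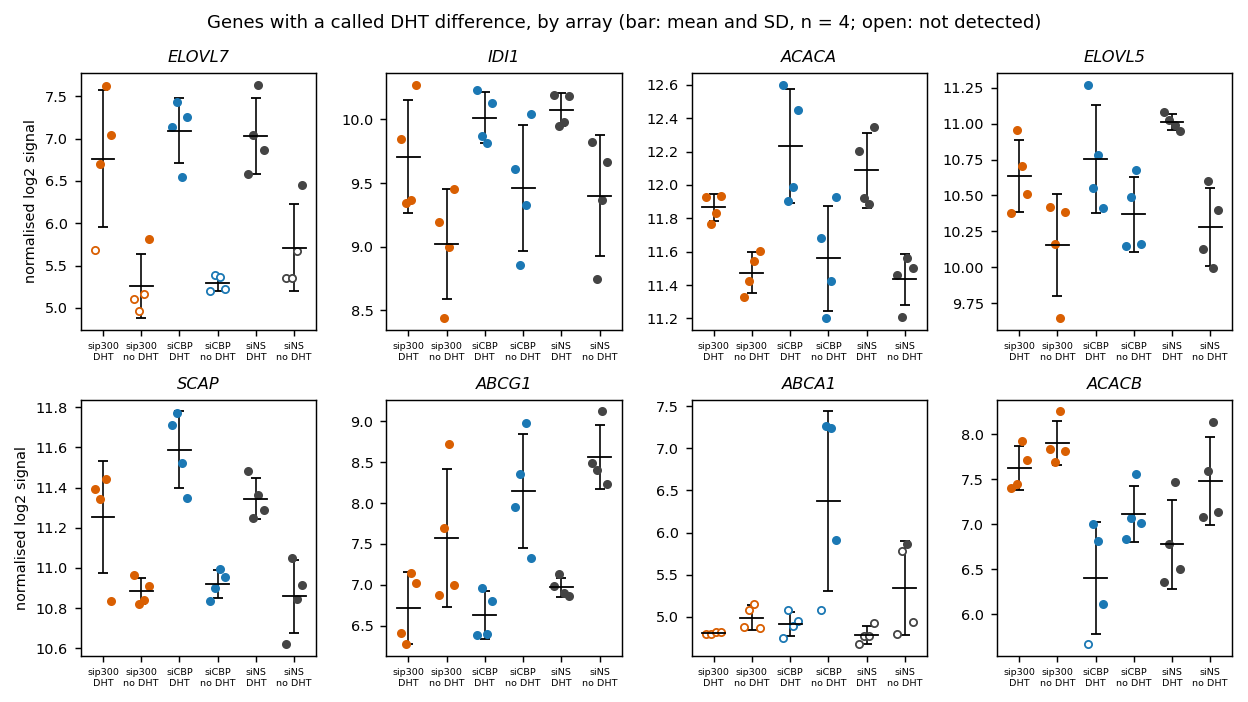
Normalised log2 signal (vertical axis) of 8 genes with a called DHT difference on each of the 24 arrays, with mean and SD over 4 arrays per group; open points were not detected. Each arm shows DHT left of no DHT, and ABCG1 stands lower with DHT in all 3 arms while ELOVL7, IDI1, ACACA, ELOVL5 and SCAP have the higher group mean with DHT in all 3.

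The LXR-linked genes fell, namely the exporters ABCG1 and ABCA1, the latter near background, and MYLIP, which is not an exporter. ABCG1 measured 6.41, 6.28, 7.15 and 7.03 with DHT in sip300 cells, against 6.87, 7.70, 8.72 and 7.0 with no DHT. In siCBP cells ABCG1 measured 6.38, 6.96, 6.40 and 6.81 with DHT, against 7.95, 8.35, 8.97 and 7.32 with no DHT. In siNS cells it measured 6.98, 7.13, 6.91 and 6.87 with DHT, against 8.49, 8.41, 9.12 and 8.24 with no DHT. All arrays with DHT stood below all arrays with no DHT in siCBP and siNS cells, and they overlapped in sip300 cells. The ABCG1 difference was -1.32 ± 0.20 (SE, limma, adjusted p = 6.35e-05). A second ABCG1 probe, detected on 9 arrays, differed by -1.44 (adjusted p = 4.03e-05 among all probes), while another, detected on 8 arrays, differed by -0.03 (adjusted p = 0.962). The ABCG1 difference over the arms was -1.35 on slide 1 and -1.29 on slide 2, but in siCBP cells it was -0.75 and -2.27. The siCBP arrays on a slide were only partly matched in replicate number.

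ABCA1 was near background almost everywhere. With DHT it was detected on 0 of 12 arrays, with a mean of 4.84, against 4 of 12 arrays with no DHT, with a mean of 5.57. Those 4 were siCBP replicates 2, 3 and 4 (7.26, 7.24 and 5.91) and siNS replicate 3 (5.86). The fit called ABCA1 lower with DHT (limma, adjusted p = 0.0165). Since the mean with no DHT lay below the lowest detected signal, no fold is given. ABCA1 passed the detection filter only through its arrays with no DHT, so its DHT calls are not independent of that filter. In siCBP cells the measured values of ABCA1 were called lower with DHT (limma, adjusted p = 0.0146). The bound, not itself tested, was at least 1.43-fold lower. Measured differences there were -0.48 on slide 1 and -2.43 on slide 2, and the ABCA1 arrays overlapped. MYLIP ranged over 9.72, 10.03 and 10.30 with DHT, against 9.99, 10.31 and 10.60 with no DHT. The MYLIP arrays overlapped, and the difference was -0.32 ± 0.09 (SE, limma, adjusted p = 0.0202), with -0.30 and -0.34 on the slides.

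Each arm was also tested on its own, with no array shared between arms. In sip300 cells ELOVL7 alone was called higher (limma, adjusted p = 0.0196), being detected on 3 of 4 arrays with DHT and on 1 of 4 with no DHT, against 0.708% of all genes. With the replicate block IDI1 was added, against 1.65% of all genes. In siCBP cells ELOVL7 (at least 2.43-fold), SCAP (0.67) and ACACA (0.68) rose and ABCG1 and ABCA1 fell, which made 5 calls against 2.23% of all genes. The block added ACACB (-0.72, adjusted p = 0.0177 with the block), MYLIP (-0.41, 0.0381) and IDI1 in siCBP cells, giving 8 calls against 4.86%. In siNS cells ACACA (0.66), ELOVL5 (0.73) and ELOVL7 (detected on 4 of 4 arrays with DHT and on 1 of 4 with no DHT) rose and ABCG1 fell (-1.59), 4 calls against 2.69% of all genes. The block added ACACB (-0.70, adjusted p = 0.0182 with the block), SCAP (0.49, 0.0278) and IDI1 in siNS cells, giving 7 calls against 5.93%. These single-arm counts depended on single arrays. The siNS count fell to 1 or 2 without any of its own 8 arrays, the sip300 count to 0 without any of 5 of its arrays, and the siCBP count to 2 without any of 3 of its arrays. In siNS cells the ELOVL5 call (limma, adjusted p = 0.0470) was lost without any of 15 of the 24 arrays. There the ACACA and ELOVL7 calls were each lost without any of 5, and that of ABCG1 was never lost. In siCBP cells ABCG1 and ABCA1 lost their calls without no-DHT replicate 2 or 3 or DHT replicate 1 (adjusted p up to 0.0791 and 0.0789). A difference of the same sign in all 3 arms was seen for 25 of the 34 genes (16 higher and 9 lower, 73.5%), against 48% of all genes. Since the genes were listed with earlier results of these data known, this share is not an independent test either.

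Whether an arm's DHT response differed from that of siNS cells was tested directly. No gene of the 34 was called for sip300 minus siNS, where 0.00804% of all genes were called, and 0 had an unadjusted p under 0.05. The same held for siCBP minus siNS, where 0% of all genes were called. Over the 28 genes detected on all 24 arrays, the limma estimates ran from -0.41 (FADS2) to 0.74 (ABCG1) for sip300 and from -0.35 (ELOVL5) to 0.32 (MVD) for siCBP. The 95% interval of the ABCG1 estimate for sip300 was -0.26 to 1.74. Over all 34 genes the median half-width of the 95% intervals was 0.65. These intervals are not adjusted for the number of genes tested, whereas a call needed an adjusted p under 0.05 over all genes. Differences between arms of about that size, and also larger ones, could therefore be missed with 4 arrays per group. The absence of calls thus does not exclude differences above that half-width.

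With the siRNA against p300, ACSL1 and several SREBP control and fatty acid genes were lower. Over the mean of both times, 8 of the 34 genes fell (ACSL1, INSIG1, FASN, ELOVL6, SREBF1, EBP, SCD and FADS1) and 2 rose (ACACB and HSD17B7). These 10 calls were 29.4% of the genes, close to the 28.7% of all genes called in that comparison. The count is therefore not a result about these genes, and the values of each are given for themselves. The median difference was -0.21 over the 34 genes and 0.02 over all genes. By role it was -0.37 for fatty acid genes, of which 11 of 12 were negative, and -0.28 for SREBP control. It was -0.17 for the LXR-linked genes and -0.07 for sterol synthesis. With the block 6 more genes were called lower (ABCG1, FADS2, FDPS, IDI1, NSDHL and SQLE), 16 in all against 38.4% of all genes. ABCG1 differed by -0.62 (adjusted p = 0.0207 with the block and 0.0566 without) and FADS2, a desaturase, by -0.60 (0.0266 with and 0.0781 without).

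**Figure D3:**
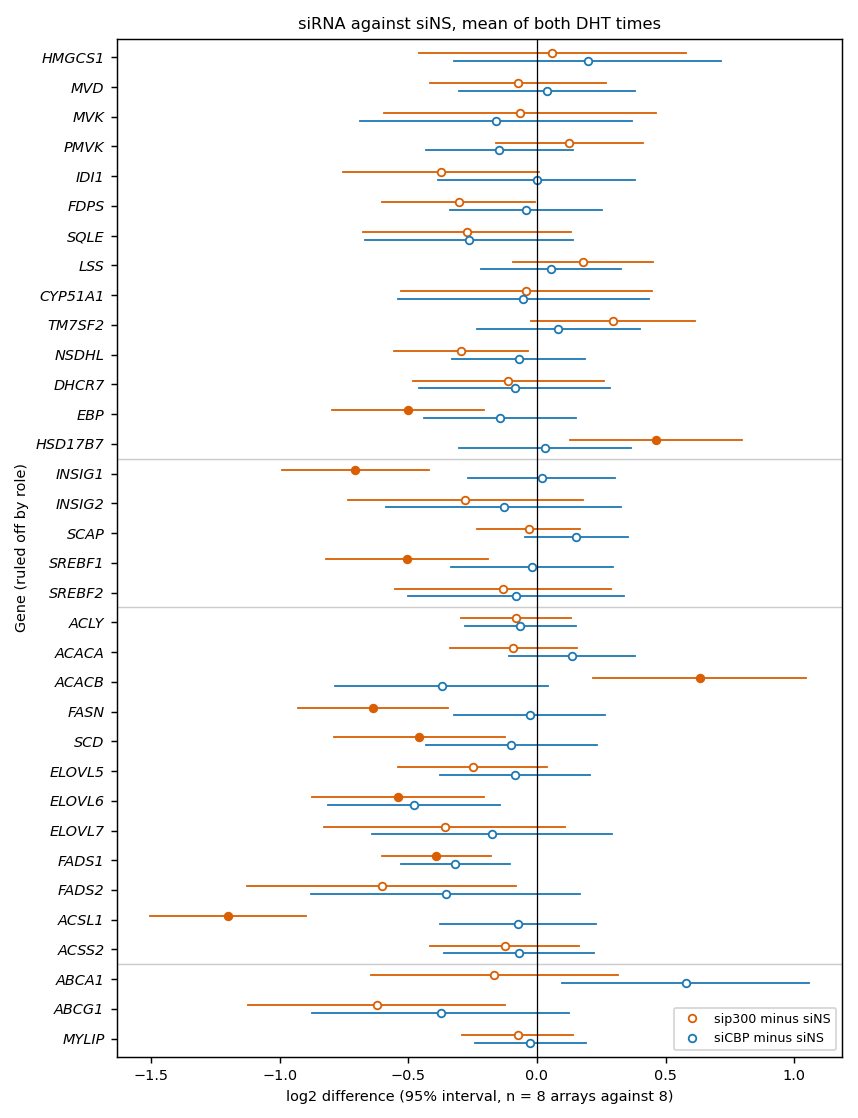
Log2 difference from siNS (horizontal axis, with 95% interval) over the mean of both times for sip300 and siCBP, 8 arrays against 8, by role. Filled points passed the test across all genes; ACSL1 with sip300 lies at -1.20, and no siCBP point is filled.

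ACSL1, which activates long-chain fatty acids to their CoA esters, was lower on every sip300 array. It measured 9.50, 9.98, 10.31 and 10.46 in sip300 cells with DHT, against 11.48, 11.20, 11.02 and 11.37 in siNS cells with DHT. With no DHT it measured 9.68, 10.40, 10.50 and 10.25 in sip300 cells, against 11.44, 11.59, 11.29 and 11.28 in siNS cells. All 8 sip300 arrays lay below all 8 siNS arrays. The difference was -1.20 ± 0.15 (SE), a ratio of 0.435 (limma, adjusted p = 5.24e-06), with -1.11 on slide 1 and -1.29 on slide 2. Its window with the SREBP site is shown above, and a link of that site to this difference was not tested.

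In SREBP control, INSIG1 and SREBF1 fell. INSIG1 measured 12.36, 11.90, 11.90 and 11.92 in sip300 cells with DHT, against 12.86, 12.66, 12.41 and 12.45 in siNS cells with DHT. With no DHT it measured 12.04, 11.56, 11.45 and 11.89 in sip300 cells, against 12.86, 12.19, 12.74 and 12.51 in siNS cells. The sip300 arrays stood below the siNS arrays at each time. The INSIG1 difference was -0.71 ± 0.14 (SE, limma, adjusted p = 0.000610), and with no DHT it was -1.29 on slide 1 and -0.38 on slide 2. The no-DHT arrays on a slide were only partly matched in replicate number. A second INSIG1 probe, detected on 23 arrays, gave -1.67 ± 0.27 (SE, adjusted p = 0.000148 among all probes). SREBF1 ranged over 10.43, 10.71 and 11.47 in sip300 cells (lowest, median and highest of 8 arrays), against 10.90, 11.30 and 11.56 in siNS cells. Replicate 3 of sip300 with no DHT, at 11.47, lay among the siNS arrays, and the other 7 lay below all of them. The SREBF1 difference was -0.50 ± 0.15 (SE, limma, adjusted p = 0.0152), and a second probe gave -0.58 (adjusted p = 0.0421 among all probes). SCAP differed by -0.03, SREBF2 by -0.13 and INSIG2 by -0.28, none of them called.

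Among fatty acid enzymes, FASN ranged over 13.04, 13.19 and 13.55 in sip300 cells, against 13.31, 13.97 and 14.27 in siNS cells. The arrays did not overlap at either time, and the difference was -0.64 ± 0.14 (SE), a ratio of 0.643 (limma, adjusted p = 0.00180), with -0.71 on slide 1 and -0.57 on slide 2. SCD, which makes monounsaturated fatty acids, ranged over 12.82, 13.07 and 13.61 in sip300 cells, against 13.17, 13.60 and 13.95 in siNS cells. Its arrays overlapped, and the call (-0.46, limma, adjusted p = 0.0362) was lost when any of 10 arrays was left out (adjusted p up to 0.0844). ELOVL6, which extends palmitate, ranged over 8.10, 8.57 and 9.15 in sip300 cells, against 8.63, 9.20 and 9.54 in siNS cells. The ELOVL6 difference was -0.54 ± 0.16 (SE, limma, adjusted p = 0.0148), and a second probe gave -0.81 (adjusted p = 0.00181 among all probes). FADS1, a desaturase of polyunsaturated fatty acids, differed by -0.39 ± 0.10 (SE, limma, adjusted p = 0.00654). The FADS1 arrays overlapped with no DHT and did not overlap with DHT. ACACB rose, with 7.41, 7.76 and 8.26 in sip300 cells, against 6.36, 7.10 and 8.13 in siNS cells. The groups overlapped, and the ACACB difference was 0.63 ± 0.20 (SE, limma, adjusted p = 0.0207), with 0.65 and 0.62 on the slides. ACACA (-0.09), ACLY (-0.08), ACSS2 (-0.13), ELOVL5 (-0.25) and ELOVL7 (detected on 4 of 8 sip300 and 5 of 8 siNS arrays) were not called.

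**Figure D4:**
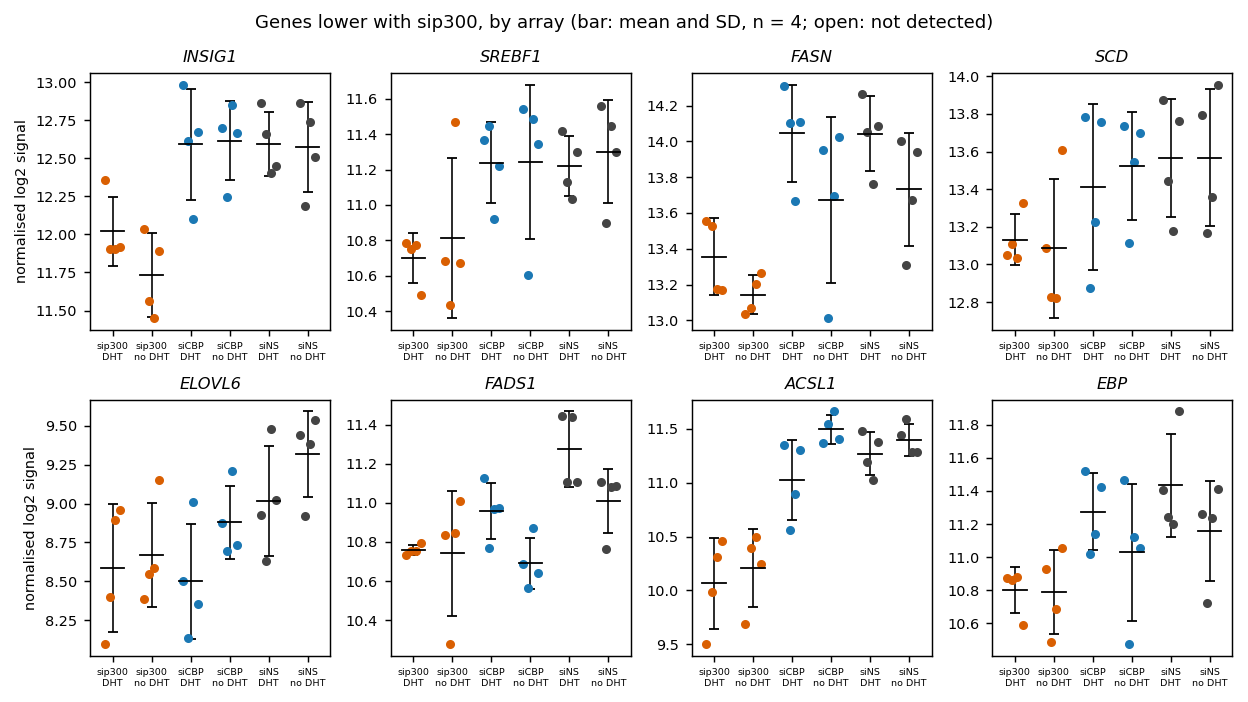
Normalised log2 signal (vertical axis) of the 8 genes lower with sip300 on each of the 24 arrays, with mean and SD over 4 arrays per group; open points would mark undetected signals. All 8 sip300 points of ACSL1 lie below all siCBP and siNS points, while those of SCD and ELOVL6 overlap with siNS.

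In sterol synthesis a pair of enzymes moved in opposite directions with sip300. EBP, a sterol isomerase of the late pathway, ranged over 10.49, 10.87 and 11.06 in sip300 cells, against 10.72, 11.25 and 11.88 in siNS cells. The EBP difference was -0.50 ± 0.14 (SE, limma, adjusted p = 0.0109), with -0.75 and -0.25 on the slides. HSD17B7, a reductase of late sterol intermediates, ranged over 11.12, 11.45 and 11.89 in sip300 cells, against 10.61, 11.15 and 11.28 in siNS cells. Its difference was 0.46 ± 0.16 (SE, limma, adjusted p = 0.0355), lost when any of 6 arrays was left out (adjusted p up to 0.0874). HSD17B7 and FDPS have close pseudogene copies, so what their probes read is uncertain. IDI1 (-0.37, adjusted p = 0.00861), FDPS (-0.30, 0.0254), NSDHL (-0.29, 0.0183) and SQLE (-0.27, 0.0457) were called lower with the block, and their adjusted p-values without it lay between 0.0828 and 0.322. The remaining enzymes lay between -0.11 (DHCR7) and 0.30 (TM7SF2).

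At single times fewer sip300 differences passed. With no DHT, ACSL1 (-1.19) and INSIG1 (-0.84) were called, against 9.94% of all genes. The block added ABCG1 (-0.99, adjusted p = 0.0195 with the block), ELOVL6 (-0.65, 0.0120), FASN (-0.59, 0.0201) and SCD (-0.48, 0.0199), giving 6 calls against 20.9%. With DHT, ACSL1 (-1.21), FASN (-0.69), EBP (-0.63), INSIG1 (-0.58) and FADS1 (-0.51) fell and ACACB (0.85) rose, 6 calls against 14.6% of all genes. The block added FADS2 (-0.81, adjusted p = 0.0489 with the block), HSD17B7 (0.50, 0.0396) and SCD (-0.43, 0.0300), giving 9 calls against 24.9%. The count with DHT fell to between 1 and 3 without any of the 4 sip300 arrays or siNS replicate 1 or 4. With DHT, the INSIG1 call (limma, adjusted p = 0.0497) was lost without any of 16 of the 24 arrays. The ACACB call (limma, adjusted p = 0.0472) was lost without any of 15. Those of EBP, FASN and FADS1 were lost without any of 6, 4 and 3 arrays, and that of ACSL1 was never lost. As shares of the 34 genes, 5.88% were called with no DHT and 17.6% with DHT.

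With the siRNA against CBP none of the 34 genes was called in limma, at either time or over their mean. Over the mean 0.346% of all genes were called, and at each single time 0.0482%. In the authors' processed values 1 gene was called with no DHT (0.852% of all genes), 0 with DHT and 4 over the mean (5.77% of all genes). At an unadjusted p under 0.05 there were 2 genes with no DHT, 2 with DHT and 3 over the mean. The share of all genes under that limit is not given here, so nothing is read from these counts. Over the 28 genes detected on all 24 arrays the mean differences ran from -0.48 (ELOVL6) to 0.20 (HMGCS1), and the median over the 34 genes was -0.07. The smallest adjusted p was 0.271 without the block (FADS1, -0.32) and 0.0549 with it (ELOVL6). For 24 of the 34 genes the 95% interval of the mean difference lay within 1.5-fold either way. ACSL1 differed by -0.07 with an interval of -0.38 to 0.23, and INSIG1 by 0.02 with an interval of -0.27 to 0.30.

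The knockdowns were also compared with each other. Relative to siCBP, sip300 cells had lower ACSL1 (-1.13, limma, adjusted p = 1.40e-05), INSIG1 (-0.73, 0.000667), FASN (-0.61, 0.00348) and SREBF1 (-0.49, 0.0242). ACACB was higher in sip300 cells (1.00, limma, adjusted p = 0.00105), with 7.41, 7.76 and 8.26 there, against 5.67, 6.92 and 7.56 in siCBP cells. ABCA1 was called lower (limma, adjusted p = 0.0240). It was detected on 0 of 8 sip300 arrays, with a mean of 4.90, against 3 of 8 siCBP arrays, with a mean of 5.64. No fold is given. ABCA1 passed the detection filter only with its siCBP arrays counted, so this call is not independent of that filter. The SREBF1 call was lost without any of 3 arrays (adjusted p up to 0.0570) and the ABCA1 call without siCBP no-DHT replicate 2 or 3 (up to 0.0566). These 6 calls were 17.6% of the genes, against 22.0% of all genes. With the block EBP (-0.36, adjusted p = 0.0176 with the block), IDI1 (-0.37, 0.0105) and SCD (-0.36, 0.00920) were added as lower and HSD17B7 (0.43, 0.0103) as higher, against 32.7% of all genes. ACSL1 ranged over 9.50, 10.28 and 10.50 in sip300 cells, against 10.56, 11.36 and 11.67 in siCBP cells, with no overlap.

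Beside these genes, 45 further genes of the same pathways were listed by name and 36 had a detected probe. With DHT over the mean of the arms, 2 of the 36 rose and 0 fell, against 7.31% of all genes. They were ELOVL2, an elongase of very long polyunsaturated fatty acids (limma, adjusted p = 0.000149), and MSMO1, a sterol methyl oxidase (0.54 ± 0.14, SE; limma, adjusted p = 0.0136). At an unadjusted p under 0.05 a further 10 differed, 3 up and 7 down, and the share of all genes under that limit is not given here. ELOVL2 was detected on 8 of 12 arrays with DHT and on 1 of 12 with no DHT, so no fold is given. It passed the detection filter only through its arrays with DHT, so its call is not independent of that filter. With the block 4 rose and 2 fell, against 13.3% of all genes. The block added SC5D (0.26, adjusted p = 0.0433 with the block) and ELOVL1 (0.36, 0.0312) as higher and AGPAT2 (-0.27, 0.0315) and LPCAT3 (-0.33, 0.00909) as lower. With sip300 relative to siNS over the mean of both times, 2 of the 36 rose and 10 fell, against 28.7% of all genes. With the block 3 rose and 14 fell, against 38.4% of all genes. The block added MBTPS1 (0.24, adjusted p = 0.0266 with the block) as higher and NPC1 (-0.47, 0.00149), LPCAT3 (-0.35, 0.00916), MSMO1 (-0.28, 0.0419) and ELOVL2 (0.0475) as lower. Without the block the lower ones included CPT1A, which admits fatty acids to mitochondria (-0.95), SCARB1, a lipoprotein receptor (-0.82), and LPIN1, a phosphatidate phosphatase (-0.77). Those that rose were NPC2, a lysosomal sterol carrier (0.56), and RXRB, a partner of LXR (0.50). With siCBP none of the 36 was called in limma over the mean, and 2 had an unadjusted p under 0.05, again with no share of all genes given.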

How the data were processed

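The titles of the 24 arrays gave siRNA and DHT time, and the table held 0 further data columns. In the deposited signal table each probe had a mean bead intensity, not normalised, and a detection p-value, per the file headers. Of its 48118 rows, 887 were control rows and were dropped. The authors' processed log2 values served as an alternative. For these the submitters' processing notes name limma with no version. In 24 of 24 columns the authors' values correlated best with that array's own values after the normalisation described next.

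Intensities went through neqc (limma 3.58.1, R 4.3.3) with an offset of 16, the detection p-values standing in for negative controls. A probe was kept if its detection p was under 0.05 on 4 or more of the 24 arrays, which left 23038 of 47231. Gene symbols were those of the platform annotation, updated through Entrez identifiers. Each of 12438 genes was represented by its brightest probe. One limma model of 6 group means (residual degrees of freedom 18) gave 13 contrasts, tested on both sides with Benjamini-Hochberg adjustment per contrast. The threshold was an adjusted p of 0.05. The script was tested on simulated data. Bounds for probes not above background used the lowest detected signal of each array. The number of arrays limits the precision.

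After centring on group means, same-numbered arrays correlated at 0.150 to 0.596 (60 pairs), and differently numbered ones at a median of -0.140. The replicate number was therefore also fitted as a block (residual degrees of freedom 15), printed where it changes a call. This pairing rests on the data, since no label explains the numbers. The members, the further pathway genes and the marker lists were chosen with earlier results of these data known. Any listed gene with a kept probe could be named, called genes got full statistics, and up to 6 called genes were named among the further pathway genes. Other alternatives were slide as a block, each slide alone, quantile normalisation alone, other filters on dim probes, other probe rules, and leaving out each array.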

Additional observations from a re-analysis of the deposited data

Results flagged for a closer look

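In 9 of 204 sets of 4 arrays (a gene in a group, 4.41%), the gap between the highest or lowest array and the nearest of the others took up more of the group's range than Dixon's 95% critical value allows, and chance does that in about 1 of 20 groups. Replicate 4 of siCBP with no DHT stood apart for FDPS at 10.44 and for HSD17B7 at 11.68, and replicate 4 of siCBP with DHT for CYP51A1 at 7.14. Replicate 4 of sip300 with DHT stood apart for EBP at 10.59, SCAP at 10.84 and SREBF1 at 10.49. Replicate 1 of sip300 with DHT stood apart for INSIG1 at 12.36. Replicate 2 of siNS with no DHT stood apart for FADS1 at 10.76, and replicate 3 of siCBP with DHT for MYLIP at 9.75.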

How the results depend on the processing

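Of 43 gene calls over all comparisons, 43 kept direction and call with the replicate block, with quantile normalisation alone and with the authors' values, and 42 with slide as a block. Without a filter on dim probes 36 did, with the mean of a gene's probes 41, with every probe tested 39, and with probes detected on all 24 arrays 32 of the 32 still tested. With slide 1 alone 13 did and with slide 2 alone 11, with 2 arrays per group and 6 residual degrees of freedom, and no call reversed under any of these settings. The replicate block gave 7 calls for DHT in siNS cells (5.93% of all genes), 2 for DHT in sip300 (1.65%) and 8 for DHT in siCBP (4.86%). It gave 6 for sip300 against siNS with no DHT (20.9%), 16 over both times (38.4%), and 10 for sip300 against siCBP (32.7%). The block changed no call in the siCBP comparisons with siNS or in the differences of DHT responses. The authors' values gave 17 calls for DHT over the arms (against 20.3% of all genes called in the same values), 9 for siNS cells (10.8%), 2 for sip300 cells (3.05%) and 9 for siCBP cells (8.51%). For sip300 against siNS they gave 14 with no DHT (30.7%), 13 with DHT (34.0%) and 17 over both times (46.3%). For siCBP against siNS they gave 1 with no DHT (0.852%) and 4 over both times (5.77%), and for sip300 against siCBP 13 (41.6%). The cause of these higher counts was not tested.

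The share of all genes called in the same setting is given in brackets. Slide 1 alone gave 3 calls for DHT over the arms (2.48%), 0 for siNS cells (0.539%), 0 for sip300 cells (0.378%) and 1 for siCBP cells (0.306%). For sip300 against siNS it gave 1 with no DHT (0.354%), 0 with DHT (3.44%) and 4 over both times (11.2%). Slide 2 alone gave 0 for siNS cells (0.515%), 0 for sip300 cells (0.257%) and 2 for siCBP cells (0.515%). For sip300 against siNS it gave 1 with no DHT (1.38%), 0 with DHT (0.322%) and 2 over both times (6.32%), and for sip300 against siCBP 2 (3.22%). Each slide has fewer samples. Probes detected on all 24 arrays gave 0 calls for DHT in sip300 (0.851%) and 3 in siCBP cells (2.96%), with 28 genes tested. They gave 4 for sip300 against siNS with no DHT (15.2%). Quantile normalisation alone (11.8%) and the mean of a gene's probes (10.1%) also gave 4 there. No filter (8.01%), and every probe tested (11.8%), each gave 3 for sip300 against siNS with DHT.

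Leaving out 1 array gave 8 to 9 calls for DHT over the arms, 8 to 13 for sip300 against siNS over both times, 5 to 7 for sip300 against siCBP and 0 for siCBP against siNS and the differences of responses. Shares of all genes in these refits are not given here, so the counts show only how stable the calls were. In siNS cells the count with DHT ranged from 1 to 4 and fell to 1 or 2 without any of the arm's own 8 arrays. In sip300 cells it ranged from 0 to 1 and was 0 without no-DHT replicate 1, 2 or 3 or DHT replicate 3 or 4. In siCBP cells it ranged from 2 to 5 and was 2 without no-DHT replicate 2 or 3 or DHT replicate 1. For sip300 against siNS with no DHT it ranged from 2 to 4 and was 4 without sip300 replicate 3 or siNS replicate 2. With DHT it ranged from 1 to 6 and was 1 to 3 without sip300 replicate 1, 2, 3 or 4 or siNS replicate 1 or 4. The call of ACACB for DHT over the arms was lost without any of sip300 no-DHT replicate 3, DHT replicate 1 or 2, siCBP no-DHT replicate 3, DHT replicate 1 or 4, siNS no-DHT replicate 2 or 3, DHT replicate 1 or 4. For sip300 against siNS over both times, that of HSD17B7 was lost without sip300 no-DHT replicate 3, DHT replicate 3 or 4, siNS no-DHT replicate 1, DHT replicate 1 or 2. That of SCD was lost without sip300 no-DHT replicate 1, 2 or 3, DHT replicate 1, 2 or 3, siNS no-DHT replicate 1 or 4, DHT replicate 1 or 4. The SREBF1 call against siCBP was lost without sip300 no-DHT replicate 2, DHT replicate 4 or siCBP no-DHT replicate 1. IDI1, SCAP, ACACA, ELOVL5, ELOVL7, ABCA1, ABCG1 and MYLIP stayed called for DHT over the arms without any single array. Dim probes limit ABCA1, ELOVL7 and SREBF2, which were near background on many arrays.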
